A study of Mus musculus with 4 samples.

Results

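A set of 6 genes linked to lymphocyte quiescence, the resting state outside the cell cycle, was followed in mouse natural killer (NK) cells with and without Tcf7: Foxo1, Foxo3, Klf2, Klf3, Klf13 and Btg1. They were chosen by symbol, through the Entrez gene number of each, and all 6 were found among the 26611 genes of the deposited count table. NK cells are innate lymphocytes that kill infected or transformed cells. The series holds 4 RNA-seq libraries of spleen cells on a C57BL/6 background, 2 of them wild-type (WT) and 2 with Tcf7 knocked out (KO), each library from its own animal. In both genotypes the cells were sorted for NK1.1, NKp46, CD11b and KLRG1 and against the T cell receptor beta chain, which selects late, mature NK cells. Tcf7 encodes Tcf-1, a DNA-binding factor of T and NK cell development. The construction of the Tcf7 allele, whether it was deleted in all tissues, and the age and sex of the mice are not given in the sources used here.

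Foxo1 and Foxo3 are forkhead transcription factors that act downstream of phosphoinositide 3-kinase: active Akt phosphorylates them, 14-3-3 proteins bind them, and they leave the nucleus. In resting lymphocytes nuclear Foxo1 promotes transcription of Klf2 and Il7r, and in NK cells Foxo1 is known to restrain late maturation. Klf2, Klf3 and Klf13 are zinc-finger factors that recognise GC-rich and CACCC sequences. Klf2 keeps T cells quiescent and positions them through S1pr1, Klf3 is mainly a repressor that recruits CtBP proteins, and Klf13 was described in T cells as an activator of the chemokine gene Ccl5. Btg1 is an antiproliferative adaptor that binds the Cnot7 and Cnot8 deadenylases of the CCR4-NOT complex and takes part in T cell quiescence.

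The promoters of the 6 genes shared GC-rich sequence (RefSeq, build GRCm38.p6, the 250 bases before each start). All 6 held the GC box GGGCGG on either strand, against 32.7% of the 32851 mouse promoters in the same table. Klf3 had 6 copies, Foxo3 5, Klf13 3, and Foxo1, Klf2 and Btg1 2 each. The GC content was 56.0% for Foxo1 and 65.2% to 78.4% for the other members, beside a median of 52.4% over all promoters, and each member had 20 to 31 CpG dinucleotides beside a median of 6. The CACCC box was found in Klf3 (5 copies), Klf13 (1) and Klf2 (1), and in 52.0% of all promoters. Core letters of the TCF/LEF family, to which Tcf-1 belongs, were searched as CTTTGA, found in 0 of 6 members and 13.8% of all promoters, and as CTTTGT, found in Foxo3 alone (26 bases before its start) and in 16.5% of all promoters. A match is a description of letters, and the absence of one says only that these letters are not in this window. Klf3 is shown because it had the most GC and CACCC boxes and the clearest separation of the genotypes. Klf2 and Btg1 are shown because they are the most abundant members and differ in their MEF2, forkhead and TATA letters. Each sequence is on the plus strand, 5′ to 3′, and stops before the first exon that RefSeq or GENCODE gives the gene, so that the Klf3 stretch of 117 bases holds 5 of its 6 GC boxes and 2 of its 5 CACCC boxes. Capitals mark GGGCGG and CACCC in either orientation for Klf3, where the last 2 marked boxes share a base, GGGCGG and the MEF2 sequence CTANNNNTAG for Klf2, and the forkhead sequence TGTTTAC and the TATA box TATAAA for Btg1.
Klf3, chr5:64803271-64803387: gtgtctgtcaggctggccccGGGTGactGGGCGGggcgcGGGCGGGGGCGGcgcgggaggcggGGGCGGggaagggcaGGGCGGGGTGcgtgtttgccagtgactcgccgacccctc
Klf2, chr8:72318812-72319032: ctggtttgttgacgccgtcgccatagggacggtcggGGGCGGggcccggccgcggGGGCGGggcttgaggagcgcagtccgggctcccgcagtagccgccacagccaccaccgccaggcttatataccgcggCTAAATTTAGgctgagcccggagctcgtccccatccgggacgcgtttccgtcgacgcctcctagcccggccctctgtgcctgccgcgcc
Btg1, chr10:96616751-96617000: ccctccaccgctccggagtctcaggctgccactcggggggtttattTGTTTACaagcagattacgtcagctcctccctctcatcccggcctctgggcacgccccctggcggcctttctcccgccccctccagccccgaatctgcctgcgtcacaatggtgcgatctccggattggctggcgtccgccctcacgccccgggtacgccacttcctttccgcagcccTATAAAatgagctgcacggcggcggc

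Only Klf2 among the members held CTANNNNTAG, the core bound by MEF2 factors, 118 bases before its start, as did 3.2% of all promoters. Btg1 was the only member with TGTTTAC, a forkhead core, 204 bases before the start, and with TATAAA, 26 bases before it, found in 3.2% and 12.4% of all promoters. The CCAAT box was found in Foxo1 (3 copies), Klf13 (2) and Btg1 (1), and in 33.8% of all promoters.

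The libraries held 28254693 to 40175537 counts. Gene levels are CPM values, in which counts are divided by a TMM-adjusted library size (edgeR). Tcf7 (chromosome 11, 52246527 to 52283383, GRCm38, as for all positions given here) stood at 89.4 and 79.0 CPM in the WT mice and at 11.2 and 25.0 CPM in the KO mice, a difference in the direction of the labels, although counts over the whole gene do not show which exons remained. In edgeR's quasi-likelihood test with Benjamini-Hochberg adjustment, 0 of 12723 tested genes (0%) passed an adjusted p of 0.05 and the smallest adjusted p was 0.561. At an unadjusted p under 0.05, edgeR had 361 genes (2.84%), and at an adjusted p under 0.05 DESeq2 called 71 (0.558%) and limma voom 0. Leaving out KO library 1 or KO library 2 gave 33 and 53 edgeR calls. All 8 NK cell markers, among them Ncr1, Klrb1c, Itgam and Klrg1, were above 10 CPM in every library, with a summed level of 16670 to 18040 CPM. T cell markers summed to 138 and 111 CPM in the WT mice and 224 and 107 CPM in the KO mice, with 6 of 10 below 1 CPM throughout. Within that list Trac, a T cell receptor constant-region gene, stood at 5.87 and 8.30 CPM in the WT mice and 93.9 and 36.0 CPM in the KO mice (log2 fold change 3.20, edgeR adjusted p 1.00, DESeq2 adjusted p 7.04e-06), and it was named after its value was seen. Cd3e stayed at or below 0.610 CPM in every library, and Cd3d and Cd3g lay between 1.15 and 5.42 CPM. Trbc2, also a T cell receptor constant-region gene, stood at 121 and 96.9 CPM in the WT mice and 120 and 65.0 CPM in the KO mice. B cell markers summed to 195 and 149 CPM against 232 and 184 CPM. Myeloid markers summed to 135 and 15.6 CPM in the WT mice and 557 and 76.2 CPM in the KO mice, and erythroid markers to 35.6 and 27.6 CPM against 194 and 121 CPM. DESeq2 called 2 of the myeloid and 3 of the erythroid markers, and edgeR 0. None of these T, B, myeloid or erythroid markers was at 0 in all 4 libraries, and their part in the levels of the 6 genes was not tested. With 2 mice per genotype the p-values rest on the spread between these mice and on variance shared across genes, and the smallest p of an exact permutation of the genotypes is 0.333.

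All 6 genes were abundant enough to be tested, and none passed: 0 of 6 had an adjusted p under 0.05 in edgeR, in DESeq2 or in limma voom. The 6 fitted log2 fold changes, KO minus WT, were all below 0, from -0.65 for Klf3 to -0.06 for Klf2. Their median was -0.35 beside -0.01 over all tested genes, of which 51.8% were below 0. Leaving out 1 library at a time turned the sign for 4 of the 6 and kept it for Klf3 and Btg1. Without WT library 2, Foxo1, Foxo3, Klf2 and Klf13 lay above 0, at 0.08, 0.23, 0.25 and 0.13. Klf3 alone had an edgeR unadjusted p under 0.05, beside 1.14% of all tested genes in the same direction. For Klf3 and Btg1, 2 of 6 members, both KO libraries were below the lower WT library, as they did for 11.6% of all tested genes (21.2% in either direction). The other 4 members overlapped between the genotypes. With the library number added to the edgeR model as a block, Klf3 passed and the other 5 did not, where 1.74% of all tested genes passed. At an unadjusted p under 0.05 that fit had 10.8% of all tested genes, beside 2.84% without the block. No source says that libraries with the same number were paired. In RNA from whole sorted populations, fewer cells of a type and less RNA per cell cannot be told apart.

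**Figure D1:**
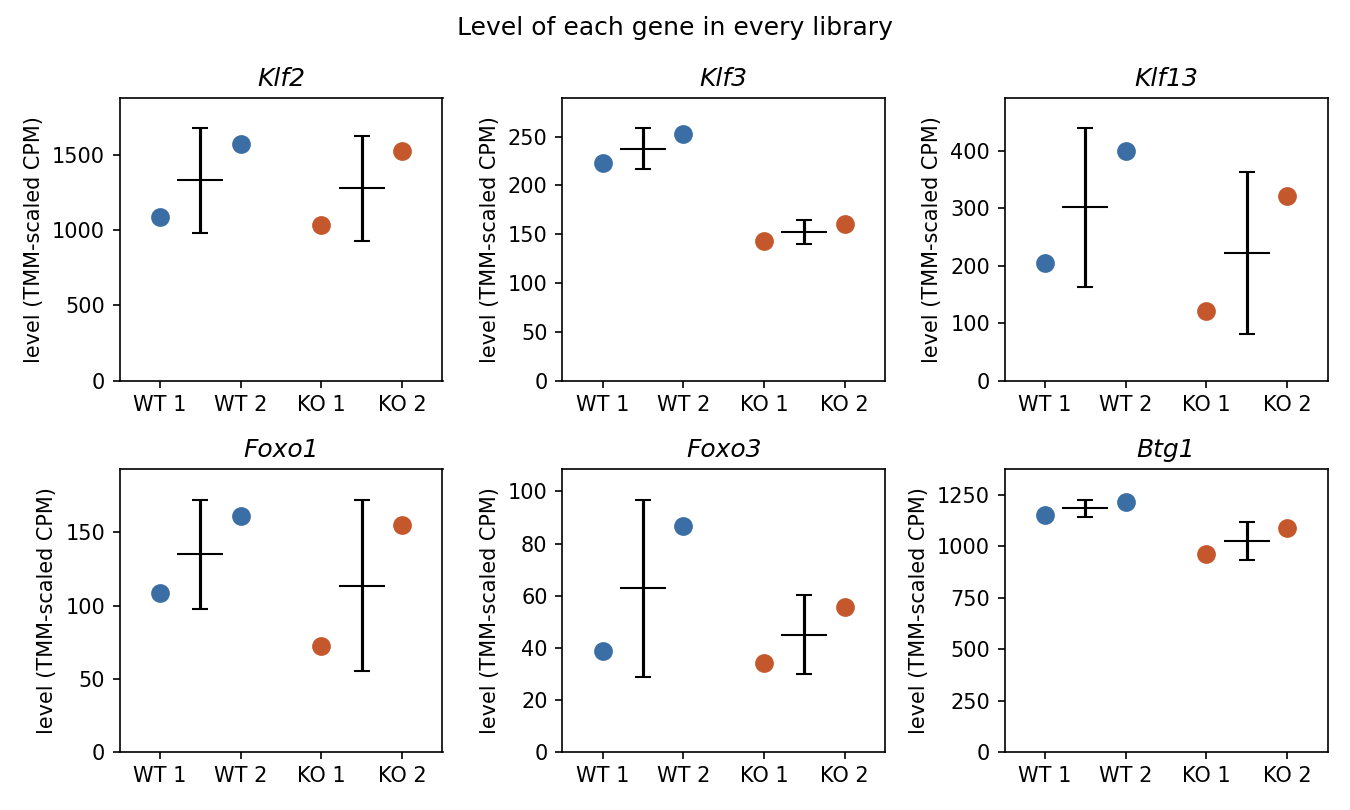
Level of each of the 6 genes in every library, in TMM-scaled CPM on linear axes that start at 0; points are single mice, horizontal lines the genotype means and bars 1 SD (n = 2 per genotype). Klf3 and Btg1 are the genes whose KO libraries both lie below both WT libraries, and in all 6 panels library 2 lies above library 1 within each genotype.

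To compare genes with each other, levels were divided by gene length (RPKM, here CPM per kilobase of gene). Per length, Klf2 was the most abundant member in every library, followed by Btg1, Klf3 and Klf13, with Foxo1 and Foxo3 at the end. Klf2 stood at 597 and 867 RPKM in WT and 568 and 840 RPKM in KO. Btg1 stood at 230 and 242 RPKM in WT and 192 and 218 RPKM in KO. The Klf2 to Btg1 ratio per length was 2.60 and 3.58 in WT and 2.96 and 3.86 in KO, so the order of this pair held in all 4 libraries. Klf3, at 96.4 and 109 RPKM in WT and 61.9 and 69.4 RPKM in KO, exceeded Klf13 in every library by 1.38 to 3.24 times. Klf13 exceeded Foxo1 by 1.47 to 2.14 times. Foxo1 and Foxo3 were not separated: their ratio was 1.46 and 0.967 in WT and 1.10 and 1.45 in KO, and WT library 2 had more Foxo3 than Foxo1. By CPM, without the length, Btg1 exceeded Klf2 in WT library 1 and Klf13 exceeded Klf3 in both second libraries.

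Among the Klf members, Klf3 differed most by genotype. Klf3 (Entrez gene 16599, chromosome 5, 64803521 to 64832901), the CtBP-recruiting repressor whose printed promoter stretch holds 5 of its 6 GC boxes, was counted 7252 and 9916 times in WT and 4201 and 5793 times in KO. These counts are 223 and 252 CPM in the WT mice and 143 and 161 CPM in the KO mice. The 2 genotypes did not overlap, and the gap between the lower WT and the higher KO library was wider than the distance between the mice of either genotype. The mean was 238 ± 20.7 CPM in the WT mice and 152 ± 12.3 CPM in the KO mice (SD, n = 2 each), so KO stood at 63.9% of WT. The log2 fold change was -0.65 (SE 0.20, 95% confidence interval -1.18 to -0.11), with edgeR p-values of 0.0270 unadjusted and 1.00 adjusted, and 1.00 adjusted in DESeq2. Leaving out 1 library at a time gave -0.74 to -0.54, always below 0, with edgeR unadjusted p from 0.0519 to 0.246. The genes Gm38457 and Gm31684 overlap Klf3 in RefSeq, Gm38457 also over the printed promoter, neither of which is counted in the table, and the strand setting of the counting is not given in the sources used here.

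Klf2 (Entrez gene 16598, chromosome 8, 72319062 to 72321654), the factor that controls lymphocyte trafficking and resting, had the smallest genotype difference of the 6. Its level was 1085 and 1575 CPM in the WT mice and 1031 and 1526 CPM in the KO mice. In both genotypes the second library was high and the first low, and the genotypes overlapped almost completely. The mean was 1330 ± 346 CPM in the WT mice and 1278 ± 350 CPM in the KO mice (SD, n = 2 each), and KO stood at 96.1% of WT. The log2 fold change of -0.06 (SE 0.32) had a 95% confidence interval of -0.91 to 0.80, and the edgeR unadjusted p was 0.866 (adjusted p 1.00). Its sign turned without WT library 2 (0.25) and without KO library 1 (0.20).

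Klf13 (Entrez gene 50794, chromosome 7, 63886351 to 63938915), the Ccl5 activator of T cells, varied most between libraries, over a range of 1.71 on the log2 scale. It stood at 204 and 399 CPM in the WT mice and at 122 and 321 CPM in the KO mice. KO library 1 was the lowest, but KO library 2 lay above WT library 1, so the genotypes overlapped. KO stood at 73.5% of WT, with means of 301 ± 138 and 222 ± 141 CPM (SD, n = 2 each). Its log2 fold change was -0.44 (SE 0.59, 95% confidence interval -2.02 to 1.13; edgeR unadjusted p 0.490, adjusted p 1.00). Without WT library 2 it was 0.13 and without KO library 1 0.09. Of the genes annotated inside Klf13, E030018B13Rik was counted 0 times in all 4 libraries and Gm27252 is not in the table.

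Foxo1 (Entrez gene 56458, chromosome 3, 52268337 to 52350109), the main Foxo factor of resting lymphocytes, stood at 109 and 162 CPM in the WT mice and at 72.3 and 155 CPM in the KO mice. KO library 1 was the lowest, KO library 2 was close to WT library 2, and the genotypes overlapped. Means were 135 ± 37.5 and 114 ± 58.7 CPM (SD, n = 2 each), with KO at 84.2% of WT. Its log2 fold change was -0.25 (SE 0.45, 95% confidence interval -1.45 to 0.95; edgeR unadjusted p 0.610, adjusted p 1.00), and it was 0.08 without WT library 2 and 0.20 without KO library 1. Foxo3 (Entrez gene 56484, chromosome 10, 42181845 to 42276695), a Foxo factor shared by many tissues, stood at 38.7 and 86.9 CPM in the WT mice and at 34.2 and 55.7 CPM in the KO mice. WT library 2 stood apart at the top while WT library 1 lay between the KO libraries. Foxo3 in KO was 71.6% of WT (62.8 ± 34.1 and 45.0 ± 15.2 CPM, SD, n = 2 each). For Foxo3 the log2 fold change was -0.48 (SE 0.49, 95% confidence interval -1.79 to 0.83; edgeR unadjusted p 0.377, adjusted p 1.00), and without WT library 2 it was 0.23. A non-coding RNA gene, Gm38485, overlaps Foxo3 and is not in the table.

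Btg1 (Entrez gene 12226, chromosome 10, 96617001 to 96622813), the deadenylase adaptor, was the steadiest of the 6 across libraries. It stood at 1153 and 1215 CPM in the WT mice and at 961 and 1090 CPM in the KO mice. Each KO library was below each WT library, but KO library 2 was nearer to WT library 1 than to KO library 1. The mean was 1184 ± 43.5 CPM in the WT mice and 1025 ± 91.2 CPM in the KO mice (SD, n = 2 each), which is 86.6%. The log2 fold change of -0.21 (SE 0.20, 95% confidence interval -0.73 to 0.32) had edgeR p-values of 0.349 unadjusted and 1.00 adjusted. It stayed below 0 without any 1 library (-0.27 to -0.12).

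Ratios within a library do not depend on how libraries are scaled to each other. The Klf3 to Klf2 ratio per length was 0.161 and 0.126 in WT and 0.109 and 0.0826 in KO, and both KO values lay below both WT values. The Btg1 to Klf3 ratio was 2.39 and 2.22 in WT and 3.10 and 3.13 in KO, with both KO values above both WT values. Both ratios hold Klf3, so they are not independent of its lower level in KO. How often ratios of other gene pairs separate the genotypes was not computed. Of the 7 ratios computed, the other 5 overlapped between the genotypes. Among these were a further ratio with Klf3, Klf3 to Klf13, at 3.02 and 1.75 in WT and 3.24 and 1.38 in KO, and Klf13 to Klf2, at 0.0534 and 0.0719 in WT and 0.0336 and 0.0598 in KO.

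For 4 of the 6 genes, libraries of the same genotype differed by more than the genotype means did. The level in library 2 exceeded that in library 1 in both WT and KO for 6 of 6 members, as it did for 40.1% of all tested genes. For these 4, Foxo1, Foxo3, Klf2 and Klf13, the difference was over 0.5 on the log2 scale in both genotypes, beside 16.6% of all tested genes. Klf13 differed by 0.97 between the WT mice and 1.40 between the KO mice, Foxo1 by 0.57 and 1.10, and Foxo3 by 1.17 and 0.70. Klf2 differed by 0.54 and 0.57. Klf3, at 0.18 and 0.17, and Btg1, at 0.08 and 0.18, differed least, and these are the genes whose genotypes did not overlap. Other forkhead genes had the same direction, 11 of 11 tested with library 2 above library 1 in both genotypes, while the other Btg and Tob genes did so in 1 of 4 and the other Klf genes in 6 of 11. The library number is only a label, and what the libraries numbered alike share is not given in the sources used here.

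**Figure D2:**
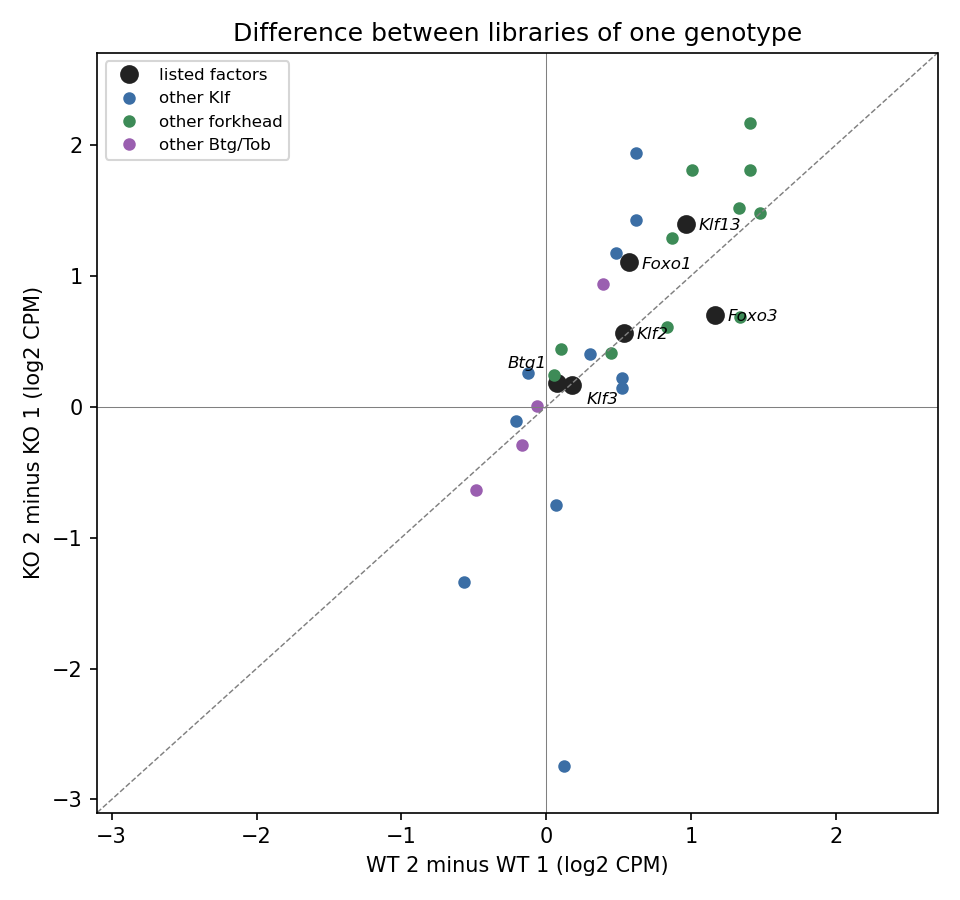
Difference between the 2 libraries of each genotype for the 6 genes (black) and for other tested genes of their families (colours), in log2 CPM, with WT on the horizontal and KO on the vertical axis; the dashed line marks equal differences. All 6 genes lie to the upper right of the origin, with Klf3 and Btg1 nearest to 0.

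Within the Klf family of 17 listed genes, Klf2 made up most of the summed level per length, at 68.5% and 72.2% in WT and 71.2% and 74.5% in KO. Klf3 made up 11.0% and 9.08% in WT and 7.76% and 6.15% in KO. The share of Klf3 was lower in both KO libraries than in both WT libraries, whereas that of Klf2 overlapped. Klf13 made up 3.65% and 5.19% in WT and 2.39% and 4.45% in KO, which overlapped too. Klf6, an early-response member that promotes growth arrest in other cells, varied from 5.62% to 10.1%. Klf10, induced by TGF-beta, held 3.42% and 3.57% in WT and 4.67% and 3.83% in KO, higher in KO without overlap. Klf8 was also higher in KO without overlap, at 0.0451% and 0.0300% in WT and 0.0786% and 0.0667% in KO. In the Foxo family of 4, Foxo1 held 40.3% to 48.6% and Foxo3 33.3% to 41.7%, and the genotypes overlapped for both. Foxo4 held 18.11% and 17.99% in WT and 21.61% and 18.13% in KO, higher in KO without overlap by a narrow margin. By CPM, without the length, the Foxo4 share overlapped. Btg1 held 48.5% and 51.3% of the Btg and Tob family in WT and 45.9% and 50.9% in KO, and Btg2, its closest relative, 33.6% to 42.1%.

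**Figure D3:**
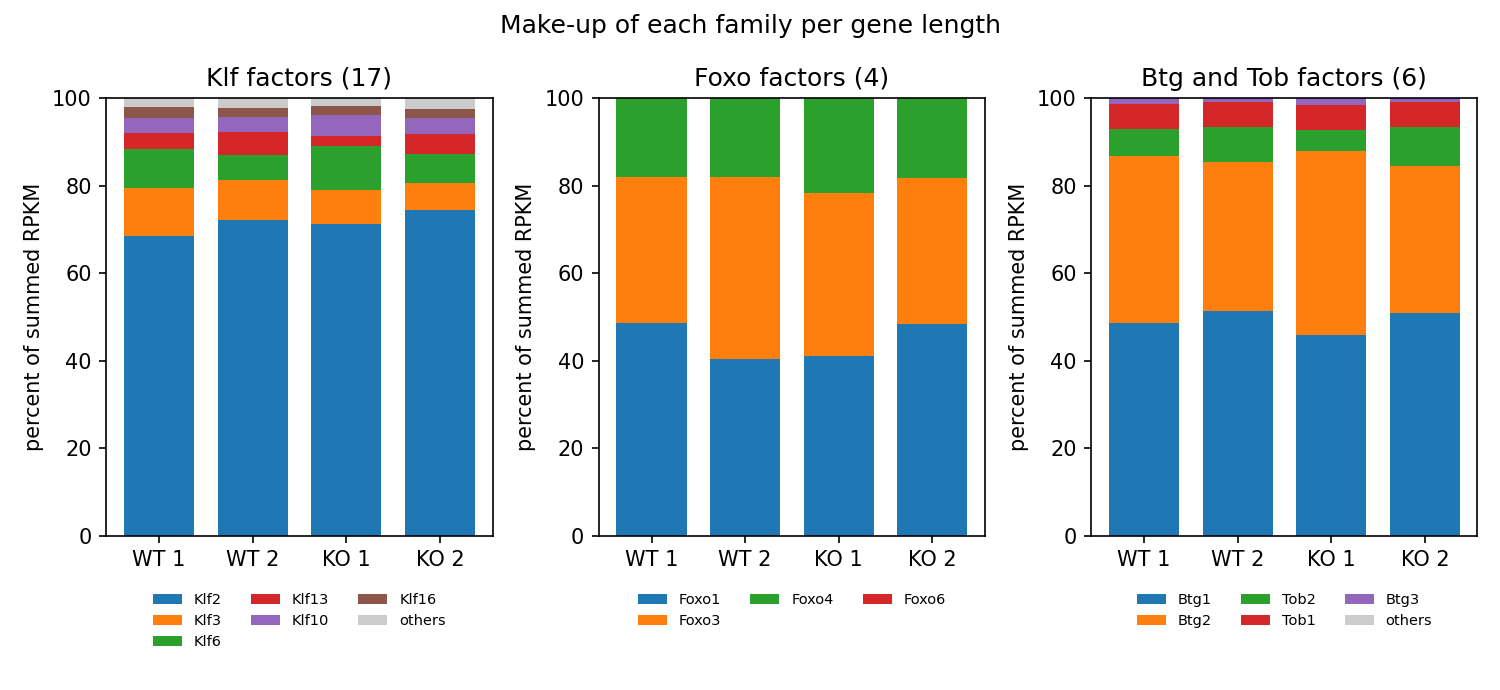
Share of the summed level per length (RPKM, percent) held by each gene of the Klf, Foxo and Btg/Tob families in each library, as stacked bars from 0 to 100%. Klf2 fills over 68% of the Klf bar in all 4 libraries, and the Klf3 segment is 11.0% and 9.08% in WT and 7.76% and 6.15% in KO.

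Of the other family members, 26 of 32 listed were abundant enough to test, and 0 passed in edgeR, where 0 also had an unadjusted p under 0.05, or in DESeq2. The median log2 fold change was -0.18 for 11 Klf genes (6 below 0 and 5 above), -0.12 for 11 forkhead genes (8 below and 3 above) and -0.12 for 4 Btg and Tob genes (3 below and 1 above). Values among the Klf genes were 1.88 for Klf1, an erythroid factor, -0.71 for Klf4, -0.60 for Klf14, -0.35 for Klf11, -0.26 for Klf9, -0.18 for Klf7 and -0.18 for Klf16. Klf6 was at 0.09, Klf10 at 0.15, Klf12 at 0.17 and Klf8 at 0.87. Klf1 stood at 0.369 and 0.407 CPM in the WT mice and at 2.56 and 0.333 CPM in the KO mice. Erythroid markers summed to 35.6 and 27.6 CPM in the WT mice and 194 and 121 CPM in the KO mice. A link between these sums and Klf1 was not tested. Klf4, at 0.800 and 0.840 CPM in the WT mice and 0.648 and 0.360 CPM in the KO mice, and Klf8, at 1.75 and 1.60 CPM in the WT mice and 2.79 and 3.35 CPM in the KO mice, were the Klf genes outside the 6 whose genotypes did not overlap, and both are of low abundance (higher in KO without overlap were 9.64% of all tested genes).

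Among the forkhead genes, Foxo4, which shares the Akt sites of Foxo1, had a log2 fold change of -0.23, and Foxp1, a further quiescence factor of T cells, one of -0.08. The others were Foxp4 at -0.25, Foxn3 at -0.22, Foxj1 at -0.21, Foxj2 at -0.14, Foxj3 at -0.12, Foxn2 at 0.03 and Foxk2 at 0.04. Foxk1 was at 0.00, with a sign that turned under other scalings, and Foxm1, a cell cycle factor, at 0.43. Among the antiproliferative adaptors Btg2 was at -0.10, Btg3 at 0.02, Tob1 at -0.15 and Tob2 at -0.25. Tob1 stood at 63.6 and 60.8 CPM in the WT mice and 55.9 and 56.0 CPM in the KO mice without overlap. In that direction 1 of 4 tested Btg and Tob genes did not overlap, beside 11.6% of all tested genes. Leaving out 1 library at a time turned the sign for 22 of these 26 genes and kept it for Klf4, Klf6, Klf8 and Tob1. Too low to test were Klf5, Klf15, Klf17, Foxo6, Foxp3 and Btg4.

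**Figure D4:**
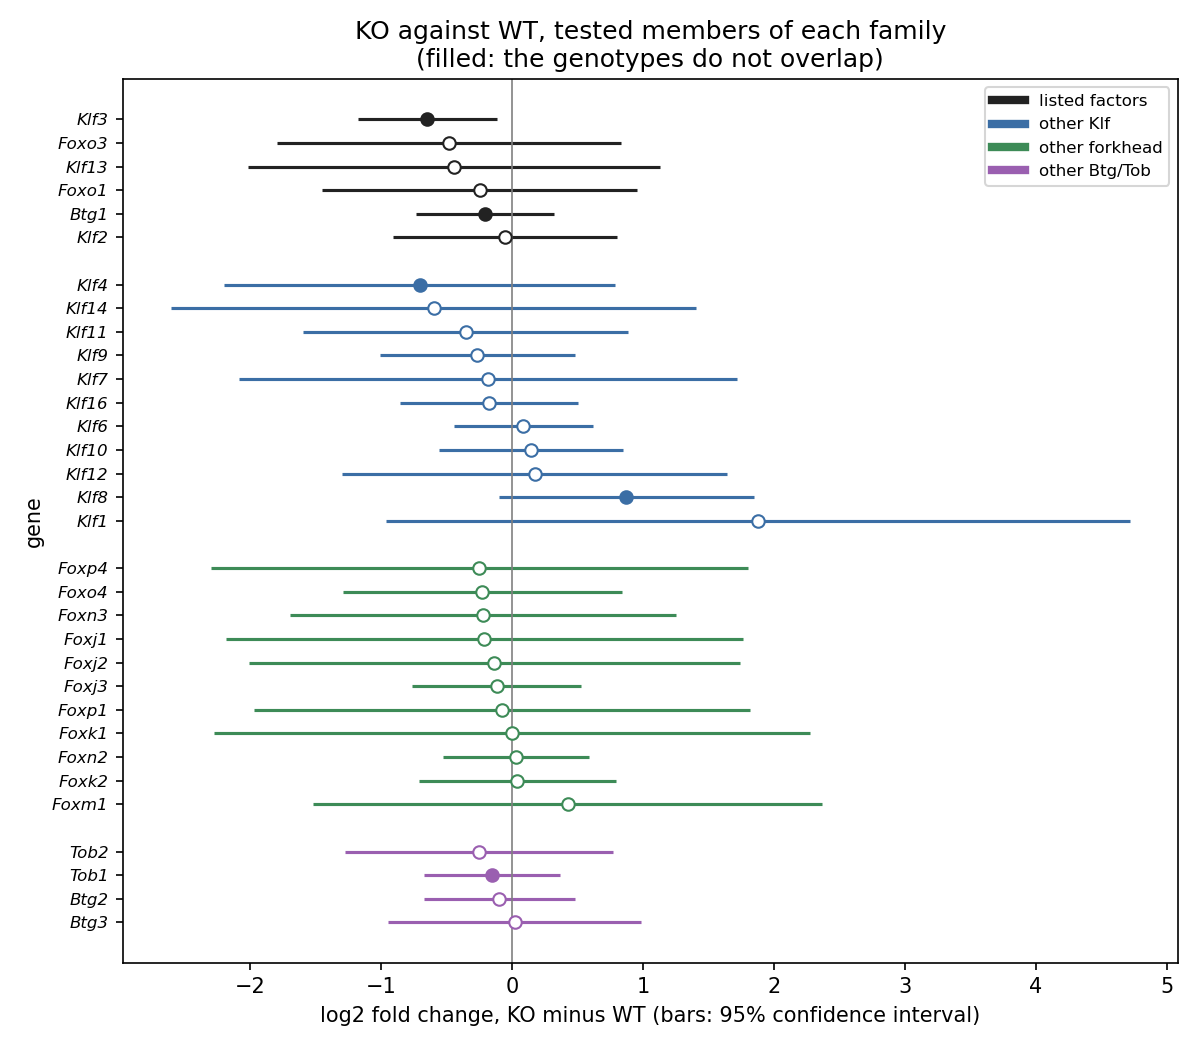
Log2 fold change (KO minus WT) with its 95% confidence interval from edgeR for the 6 genes and the other tested members of their families; filled points mark genes whose genotypes do not overlap. The interval of Klf3 (-1.18 to -0.11) is the only one that does not reach 0, and 0 genes of the plot passed the adjusted test.

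The kinases and regulators that act on Foxo proteins had a median close to 0 with all libraries, and of -0.28 to 0.33 with 1 left out. Of 37 genes, all tested, 0 passed in edgeR or DESeq2, 21 lay below 0 and 16 above, and the median log2 fold change was -0.01. At an unadjusted p under 0.05 edgeR had 1 lower, Pik3ip1, and 1 higher, Ywhae (1.70% of all tested genes were higher at that p). Pik3ip1, an inhibitor of phosphoinositide 3-kinase, stood at 17.5 and 28.6 CPM in the WT mice and at 9.03 and 12.9 CPM in the KO mice, with each KO library below each WT library and a log2 fold change of -1.07 (SE 0.36, edgeR unadjusted p 0.0356, adjusted p 1.00). Ywhae, a 14-3-3 protein, stood at 235 and 211 CPM in the WT mice and at 350 and 306 CPM in the KO mice, with a log2 fold change of 0.56 (SE 0.20, edgeR unadjusted p 0.0435, adjusted p 1.00). The genotypes did not overlap for either gene. In the list 2 of 37 genes were lower without overlap and 5 higher, beside 11.6% and 9.64% of all tested genes. Rptor, the mTORC1 scaffold, had a log2 fold change of 0.44. The kinase Akt1 was at 0.00, where the sign turned under other scalings.

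Of 32 described Foxo targets, Klf2 among them, 30 were tested, 17 lay below 0 and 13 above, with a median of -0.06, and 0 passed in edgeR. At an unadjusted p under 0.05 edgeR had 3 lower, Il7r, Irs2 and Insr, and 0 higher, beside 1.14% and 1.70% of all tested genes. Il7r, the interleukin-7 receptor chain, stood at 9.38 and 5.80 CPM in the WT mice and at 0.648 and 1.08 CPM in the KO mice. Both KO libraries were far below both WT libraries, with a log2 fold change of -3.12 (SE 0.48, edgeR unadjusted p 0.00194, adjusted p 1.00), and Il7r was the 1 gene of the list called by DESeq2 (adjusted p 1.68e-05). Irs2, an insulin receptor adaptor, stood at 9.75 and 14.4 CPM in the WT mice and at 3.65 and 5.60 CPM in the KO mice (log2 fold change -1.38, SE 0.37, edgeR unadjusted p 0.0163, adjusted p 1.00). Insr, the insulin receptor, stood at 6.70 and 10.1 CPM in the WT mice and at 3.48 and 4.13 CPM in the KO mice (log2 fold change -1.14, SE 0.34, edgeR unadjusted p 0.0237, adjusted p 1.00). These genes, like Pik3ip1, were below 30 CPM in every library, and their genotypes did not overlap. In the list 8 of 30 tested genes were lower without overlap and 3 higher, beside 11.6% and 9.64% of all tested genes. Other targets had smaller values: Bcl6, a transcriptional repressor, was at -0.57 and Cdkn1b, the p27 inhibitor of cyclin-dependent kinases, at -0.17. Ccr7, a lymph node homing receptor, reached at most 1.19 CPM.

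The regulators and described targets of Klf2 lay below 0 in 15 of 19 tested genes (20 listed), beside 51.8% of all tested genes. Their median was -0.17, and 0 passed in edgeR (0 at an unadjusted p under 0.05) or in DESeq2. S1pr5, the sphingosine-1-phosphate receptor that lets mature NK cells leave tissues, stood at 918 and 978 CPM in the WT mice and at 720 and 878 CPM in the KO mice, without overlap, at a log2 fold change of -0.25. S1pr1, the receptor that Klf2 controls in T cells, stood at 148 and 148 CPM in the WT mice and at 179 and 102 CPM in the KO mice, on both sides of WT. Among genes of the list with a mean of at least 5 CPM, the 3 largest differences were in Mapk7, the ERK5 kinase upstream of Klf2 (-0.73), Cxcr3, a chemokine receptor (-0.68), and Wwp1, a ubiquitin ligase (-0.55). Cxcr3 stood at 88.9 and 64.6 CPM in the WT mice and at 57.7 and 38.2 CPM in the KO mice. Its KO libraries both lay below its WT libraries. In the list 5 of 19 tested genes were lower without overlap and 0 higher, beside 11.6% and 9.64% of all tested genes.

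Partners of the other members showed small values. Of 9 partners and targets of Klf3 and Klf13, 5 lay below 0 and 4 above, with a median of -0.01, and 0 passed in edgeR (0 at an unadjusted p under 0.05) or in DESeq2. Ctbp2, a corepressor that Klf3 binds, was at 0.14, Hdac1, a histone deacetylase, at 0.14, and Prpf4b, a kinase linked to Klf13, at 0.13. Ccl5 stood at 5543 and 7249 CPM in the WT mice and at 6245 and 6284 CPM in the KO mice, with both KO values between the WT values. Of 16 CCR4-NOT and related genes, 11 lay below 0 and 5 above, with a median of -0.04, and 0 passed in edgeR (0 at an unadjusted p under 0.05) or in DESeq2. The deadenylases that Btg1 binds, Cnot7 at -0.03 and Cnot8 at 0.18, overlapped between the genotypes, and the scaffold Cnot1 was at -0.17 and the deadenylase Cnot6l at -0.16.

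Other genes linked to quiescence lay below 0 in 14 of 19 tested (20 listed), beside 51.8% of all tested genes. Their median was -0.15, and 0 passed in edgeR or DESeq2. At an unadjusted p under 0.05 edgeR had 1 lower and 1 higher, beside 1.14% and 1.70% of all tested genes. The lower gene was Cdkn1c, a cyclin-dependent kinase inhibitor chosen after its value was seen, and the higher gene Ndrg1. Cdkn1c stood at 5.63 and 7.48 CPM in the WT mice and at 2.90 and 2.69 CPM in the KO mice, without overlap. Its log2 fold change was -1.23 (SE 0.32, edgeR unadjusted p 0.0148). Ndrg1, a stress-induced gene linked to T cell anergy, stood at 15.7 and 7.76 CPM in the WT mice and at 45.9 and 33.0 CPM in the KO mice, with a log2 fold change of 1.75 (SE 0.43, edgeR unadjusted p 0.0127, adjusted p 1.00). Both KO libraries lay above both WT libraries. In the list 4 of 19 tested genes were lower without overlap and 1 higher, beside 11.6% and 9.64% of all tested genes. Pdcd4, a translation inhibitor, was at -0.35 and Zeb1, a transcriptional repressor, at -0.31.

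The cell cycle list lay mostly above 0. Of 24 genes, 23 lay above 0 with a median of 0.99, 10 had an edgeR unadjusted p under 0.05, and 15 were higher without overlap. Beside these counts, 6135 of all 12723 tested genes lay above 0, 1.70% were higher at that p and 9.64% were higher without overlap. In the list 0 passed the adjusted edgeR test and DESeq2 called 1, Ccnb2. Ccnb2, a mitotic cyclin, stood at 2.03 and 0.993 CPM in the WT mice and at 14.1 and 6.13 CPM in the KO mice (log2 fold change 2.74, DESeq2 adjusted p 0.00451). Ccna2 was at 2.09 and Cdk1 at 1.15. KO library 1 had the highest myeloid and erythroid marker sums and the lowest levels of all 6 quiescence genes. Over all 12723 tested genes, it was above KO library 2 for 6451. Among the 24 cell cycle genes it was above KO library 2 for 15, Ccnb2 among them, and below it for others. Of the latter, Mki67, a proliferation marker, stood at 1.16 and 10.2 CPM in the KO mice and Ccnd2, a G1 cyclin, at 617 and 1086 CPM (both named after their values were seen). The part of other cell types in these values was not tested.

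**Figure D5:**
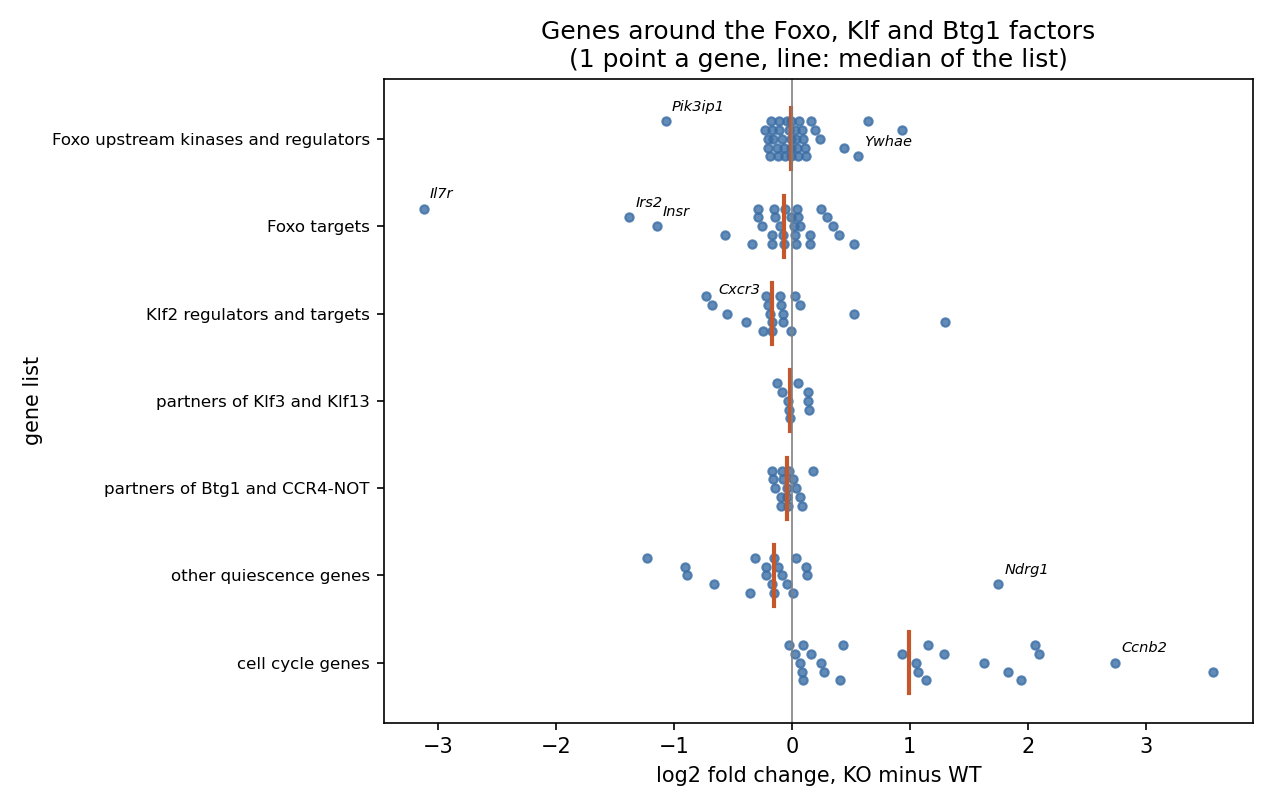
Log2 fold change (KO minus WT) of every tested gene in the pathway lists, 1 point per gene, with the list medians as vertical bars. The medians of the lists other than the cell cycle list lie between -0.17 and -0.01, and that of the cell cycle list at 0.99.

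For each member, the gene most like it over the 4 libraries was found by the root mean square difference of centred log2 CPM among 9286 genes with a mean of at least 5 CPM. The nearest to Klf3 was Ephb6 at 0.0356, to Foxo3 Krt86 at 0.0654, to Foxo1 Ubqln2 at 0.0093, to Klf2 Ogfod1 at 0.0103 and to Btg1 Mms19 at 0.0084. Klf13, the member of widest range, was nearest to Zfp362 (0.0312), Pfas (0.0502) and Rfx2 (0.0535). Of the 9286 genes, 735 lay within 0.1 of Btg1, 478 of Klf2 and 206 of Foxo1. Klf13, Klf3 and Foxo3 had 31, 22 and 7 genes within that distance. A fixed distance can take in more genes around a member of small range, so these counts do not rank how common a pattern is. The log2 range was 0.34 for Btg1 and 0.61 for Klf2, beside 0.82 to 1.71 for the other members. The 4 libraries are the only points behind each likeness.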

How the data were processed

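RNA-seq libraries of sorted splenic NK cells from 2 WT and 2 Tcf7 KO mice were compared. The deposited values are whole-number counts per Entrez gene with a gene length, per the file headers. The authors used featureCounts and the mm10 build, per the submitters' processing notes. Versions, the aligner and the strand setting are not given in the sources used here. Of 26611 genes, 25275 (95%) matched a RefSeq symbol (GRCm38.p6), and the others, holding 1.23% of counts, stayed in the tests. Library totals were 31860505 and 40175537 (WT) and 28254693 and 37384979 (KO). Counts of libraries differed beyond sampling noise (chi-square per degree of freedom 34.6 to 266), so all 4 were used. Intervals cover the spread between mice.

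The main test was the robust quasi-likelihood F-test of edgeR 4.0.16 (R 4.3.3; TMM factors, filterByExpr with a minimum count of 10, genotype as the only term, two-sided), with Benjamini-Hochberg adjustment over all 12723 tested genes. It was run on simulated counts with the same variability for all genes and no library-number effect. That does not show how well it detects changes in these data. RPKM values were computed here from TMM-scaled CPM and the deposited lengths. Standard errors were derived from the F statistic. The likeness scale used log2 CPM with a prior count of 2. Alternatives were other scalings and filters, DESeq2 1.42.0, limma voom 3.58.1, the replicate number as a block and each library left out. DESeq2 with the block and family shares by CPM were added after seeing the data.

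The 6 genes and all lists were chosen with earlier results of these data known. Named genes are Tcf7, the 6 genes, every tested member of their families, the 3 largest differences with a mean of at least 5 CPM in each other list, and genes chosen by name, some of which are not reported here. Cdkn1c, Trac, Trbc2, Cd3d, Cd3e, Cd3g, Mki67 and Ccnd2 were named after their values were seen.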

Additional observations from a re-analysis of the deposited data

How the results depend on the processing

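The number of genes called was 0 with other scaling factors, without robust estimation, with limma voom and with at least 5 CPM in 2 libraries, 35 without a filter on low counts, 71 with DESeq2 and 0 to 53 with 1 library left out. Tcf7 passed without a filter (-2.20, edgeR adjusted p 0.0203) and with DESeq2 (-2.20, adjusted p 0.00216), and stood at -2.88 to -1.75 with 1 library left out. No setting other than the replicate block moved any of the 6 genes past the threshold. With 1 library left out, the log2 fold change was -0.87 to 0.20 for Foxo1, -0.95 to 0.23 for Foxo3, -0.33 to 0.25 for Klf2, -1.27 to 0.13 for Klf13, -0.74 to -0.54 for Klf3 and -0.27 to -0.12 for Btg1; in these fits the lone library of a genotype is assumed to vary like the others. By CPM, without gene length, the share of Klf3 in the Klf family was 9.92% in WT and 6.94% in KO (means of 2), again without overlap. No scaling moved the median of all genes by 0.1 or more on the log2 scale. Foxk1 turned to 0.017 with DESeq2 size factors and with DESeq2's own test, to 0.0056 without a filter and to 0.010 with at least 5 CPM, and Akt1 to 0.014, 0.014, 0.011 and 0.022 in that order. The other named genes whose sign turned with 1 library left out ranged as follows: Klf1 -0.22 to 2.74, Klf7 -1.45 to 0.48, Klf9 -0.51 to 0.036, Klf10 -0.096 to 0.45, Klf11 -1.02 to 0.12, Klf12 -0.68 to 0.72, Klf14 -1.56 to 0.029, Klf16 -0.36 to 0.012, Foxo4 -0.59 to 0.26, Foxp1 -0.96 to 0.85, Foxp4 -1.39 to 0.63, Foxj1 -0.77 to 0.73, Foxj2 -1.27 to 0.50, Foxj3 -0.32 to 0.088, Foxk1 -1.43 to 0.87, Foxk2 -0.17 to 0.30, Foxn2 -0.063 to 0.15, Foxn3 -0.97 to 0.29, Foxm1 -0.51 to 1.27, Btg2 -0.25 to 0.075, Btg3 -0.33 to 0.34, Tob2 -0.76 to 0.14, Rptor -0.28 to 0.93, Ctbp2 -0.19 to 0.43, Prpf4b -0.29 to 0.49, Cnot8 -0.029 to 0.39, Cnot1 -0.62 to 0.26, Zeb1 -0.86 to 0.10, S1pr1 -0.53 to 0.30, Ccr7 -0.53 to 1.95, Cdkn1b -0.44 to 0.095, Ccl5 -0.22 to 0.19, Akt1 -0.077 to 0.083, Cnot7 -0.17 to 0.13. With 1 library left out, medians were -0.30 to 0.037 for other Klf genes and -0.62 to 0.47 for other forkhead genes. For Foxo targets the range was -0.20 to 0.0485, for Klf3 and Klf13 partners -0.14 to 0.19, and for CCR4-NOT genes -0.15 to 0.097. Medians kept their sign for other Btg and Tob genes (-0.20 to -0.023) and the Klf2 list (-0.32 to -0.11). So did those of other quiescence genes (-0.35 to -0.0495) and cell cycle genes (0.78 to 0.93). The cause of these changes was not tested.

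No source says that libraries with the same number were paired. With the replicate number as a block (replicate block), edgeR called 221 genes (1.74%), Klf3 among them (-0.65, SE 0.12, adjusted p 0.0282) and none of the other 5 members, and DESeq2 called 240, with Klf3 at -0.63 (adjusted p 0.0124) and Tcf7 at -2.31 (adjusted p 0.0183). Tcf7 did not pass in edgeR with the block (-2.31, adjusted p 0.0745). Il7r, Irs2, Pik3ip1, Cxcr3, Ndrg1, Ccnb2 and Ccna2 passed in edgeR with the block too. The deviations of same-numbered libraries from their genotype means correlated at 0.728 across genes, which, with 2 pairs, does not show a pairing.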
